A study of Mus musculus with 3 samples.

Results

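The 8 genes described here are neutrophil genes, genes studied in platelets and lectin genes of myeloid cells. Ngp, S100a9 and Csf3r are granulocyte genes, Clec1b, Treml1 and F2r encode receptors studied on platelets, and Clec4a2 and Clec4b1 encode C-type lectins of myeloid cells. They were chosen by symbol from the platform annotation with earlier results of these data known, so their ranks only describe them. Each has 1 probe, so they are 8 of the 16273 probes in the table. All 8 probes were measured on every array, and they are 8 of the 6077 genes with a value on all 3 arrays. The series compared spleen, as purchased total RNA in Cy5 (red), with a universal mouse reference RNA, as purchased total RNA from pooled mouse cell lines in Cy3 (green), on 3 arrays. Both RNAs were amplified in a single round to cRNA before labelling. The labels give no strain, age, sex or number of animals for the spleen RNA, and they describe the same 2 products each time. The spread between arrays may therefore be purely technical, and no p-value here speaks for other spleens.

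The deposited value is a log ratio of the 2 channels, with neither the log base nor the numerator given. Values above 0 are called likely higher in spleen, on the usual order of red over green. On that reading all 6 measured erythroid genes and all 6 measured B cell genes were positive, with medians of 2.70 and 2.97, and all 5 measured fibroblast and matrix genes were negative, with a median of -2.20. Those signs were known when the reading was chosen, and the sample titles name the reference ahead of spleen. If the ratio runs the other way, every sign below turns. The dye orientation was the same on each array, so dye and RNA source cannot be told apart. In a bulk ratio, more cells of a type and more RNA per cell also cannot be told apart.

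Neutrophils carry granules filled with antimicrobial and calcium-binding proteins, and their production and release depend on the cytokine G-CSF. Platelets are shed by megakaryocytes, which in mice also reside in the spleen, and they respond to vessel injury through surface receptors for podoplanin, thrombin and other ligands. C-type lectin receptors of the DCIR and DCAR group sit on dendritic cells, macrophages and monocytes, where the inhibitory DCIR signals through phosphatases and the activating DCAR through the Fc receptor gamma chain. The red pulp of the spleen holds blood, and with it neutrophils, monocytes and platelets.

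All 8 genes passed the gene test of limma (adjusted p under 0.05), which called 70.3% of all genes. Of these, 7 were positive, a sign called for 33.2% of all genes, and F2r was negative, a sign called for 37.1%. Because calls are so common in this table, passing the test says little about a gene, and the sizes of the ratios carry more. Against a 1.5-fold change in base 2, a test passed by 19.9% of genes, 7 of the 8 passed, F2r being the exception. Read as natural logs, 7 passed where 29.1% of genes did. The median ratio of all genes was -0.0329.

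**Figure D1:**
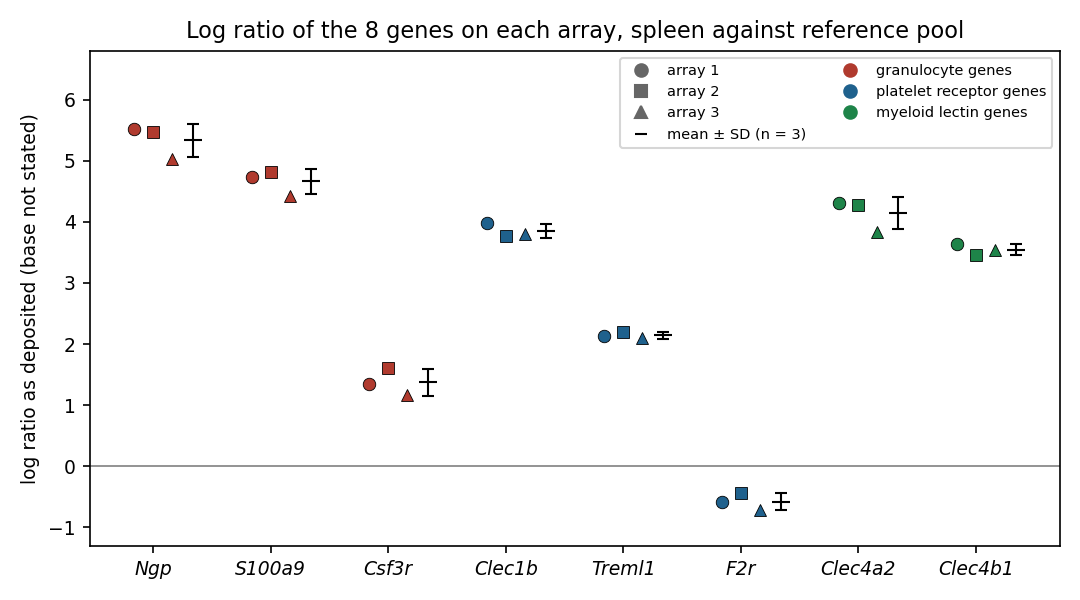
Log ratio as deposited (vertical axis, base not stated) of each gene on arrays 1, 2 and 3 (circle, square, triangle), with the mean and SD over the 3 arrays beside it. The 7 positive genes have means between 1.37 and 5.34, and F2r has a mean of -0.58 with all 3 arrays below 0.

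Among the granulocyte genes, Ngp had the highest ratio of the 8 genes. Ngp encodes neutrophilic granule protein, a relative of cathelicidins and cystatins stored in neutrophil granules. Its log ratio was 5.51 on array 1, 5.48 on array 2 and 5.03 on array 3. Arrays 1 and 2 lay close together and array 3 below both. The mean was 5.34 ± 0.27 (SD, n = 3), with a limma adjusted p of 5.44e-08, and Ngp ranked 3 from the top of 6077 genes. The size corresponds to 40.5-fold in base 2 and to 208-fold in natural logs.

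S100a9 encodes a calcium-binding subunit of calprotectin, abundant in the neutrophil cytosol. Its log ratio was 4.74, 4.82 and 4.43 on arrays 1 to 3, again with array 3 lowest. The mean of 4.66 ± 0.21 (SD, n = 3) ranked 12 from the top and corresponds to 25.3-fold in base 2 or 106-fold in natural logs, with a limma adjusted p of 5.14e-08. On every array S100a9 lay below Ngp, by 0.77, 0.66 and 0.60.

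Csf3r, the receptor for G-CSF, is carried by neutrophils and their precursors. It had log ratios of 1.34, 1.61 and 1.17 on arrays 1 to 3, the lowest of the granulocyte genes on each array. Array 2 was highest and array 3 lowest. The mean was 1.37 ± 0.22 (SD, n = 3), equal to 2.59-fold in base 2 or 3.95-fold in natural logs, with a limma adjusted p of 1.23e-05. Csf3r ranked 276 from the top, and 95.5% of genes had a lower mean. Within arrays it lay 3.29 ± 0.094 (SD, n = 3) below S100a9.

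The promoters of Ngp and S100a9 are shown because these are the granulocyte genes with the largest ratios. The 250 bases before each start site come from RefSeq sequences of build GRCm38.p6, where all 8 genes had an entry. Capitals mark matches, on either strand, to any of 3 motifs, which may overlap. The GATA core, AGATAA, was held by 9.99% of 32851 promoters of the same length. The ETS core bound by factors such as PU.1, spelled GAGGAA, was held by 23.3%. The loose C/EBP form, TTNNGNAA, was held by 36.8%. The Ngp window is chr9:110419558-110419807 (plus strand) and the S100a9 window is chr3:90695722-90695971 (minus strand).
Ngp: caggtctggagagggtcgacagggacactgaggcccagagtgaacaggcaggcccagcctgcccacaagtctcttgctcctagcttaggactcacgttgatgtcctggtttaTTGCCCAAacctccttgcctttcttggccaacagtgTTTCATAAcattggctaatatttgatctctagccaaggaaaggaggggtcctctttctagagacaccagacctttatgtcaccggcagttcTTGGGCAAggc
S100a9: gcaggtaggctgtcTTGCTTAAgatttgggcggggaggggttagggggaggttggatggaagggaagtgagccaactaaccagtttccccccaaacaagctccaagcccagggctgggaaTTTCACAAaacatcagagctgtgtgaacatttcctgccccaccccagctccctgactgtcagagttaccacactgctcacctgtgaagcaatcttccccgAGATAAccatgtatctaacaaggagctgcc
Ngp held 3 matches to the C/EBP form and S100a9 held 2, with 1 to the GATA core in S100a9. Csf3r held 1 match to the ETS core. A match is a run of letters and was not tested as a binding site.

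Of the platelet receptor genes, Clec1b had the largest ratio. It encodes CLEC-2, the receptor for podoplanin, which signals through the kinase Syk and in mice has also been found on some myeloid cells. Its log ratio was 3.98 on array 1, 3.78 on array 2 and 3.81 on array 3. Here array 1 was highest and the other 2 arrays were nearly alike. The mean of 3.85 ± 0.11 (SD, n = 3) ranked 32 from the top, equal to 14.5-fold in base 2 or 47.2-fold in natural logs, with a limma adjusted p of 4.65e-08.

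Treml1 encodes TLT-1, a receptor stored in the granules of platelets and megakaryocytes and brought to the surface on activation. Its log ratios of 2.14, 2.20 and 2.09 on arrays 1 to 3 were the most closely spaced of the 8 genes, within 0.11 of each other. The mean was 2.14 ± 0.055 (SD, n = 3), or 4.42-fold in base 2 and 8.53-fold in natural logs, with a limma adjusted p of 2.84e-07. It ranked 125 from the top. Within arrays Treml1 lay 1.71 ± 0.14 (SD, n = 3) below Clec1b.

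F2r, which encodes the thrombin receptor PAR1, was the 1 negative gene. PAR1 is the main thrombin receptor of human platelets, whereas mouse platelets rely on other family members, and in both species it is found on fibroblasts and endothelial cells. F2r had log ratios of -0.59, -0.44 and -0.71 on arrays 1 to 3, all below 0. Array 2 was nearest to 0 and array 3 furthest from it. The mean was -0.58 ± 0.14 (SD, n = 3), with a limma adjusted p of 0.00035, and 16% of genes had a lower mean. Its size amounts to 1.49-fold lower in base 2 or 1.78-fold lower in natural logs. In limma's test against a 1.5-fold change F2r did not pass on either reading, with an adjusted p of 1 in base 2 and 0.0841 in natural logs. The fibroblast and matrix genes had the same sign, with means from -3.24 to -0.94. Of the 4 measured endothelial genes 3 were positive and 1 negative, with means from -0.23 to 2.97. The part of those cells in the F2r ratio was not tested.

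The F2r promoter is shown as that of the 1 gene with the opposite sign. Its window, chr13:95618467-95618716 on the minus strand, held 70.8% G and C, against a median of 52.4% over all promoters, and no match to the 3 motifs. The windows of Clec1b and Treml1 held none either.
F2r: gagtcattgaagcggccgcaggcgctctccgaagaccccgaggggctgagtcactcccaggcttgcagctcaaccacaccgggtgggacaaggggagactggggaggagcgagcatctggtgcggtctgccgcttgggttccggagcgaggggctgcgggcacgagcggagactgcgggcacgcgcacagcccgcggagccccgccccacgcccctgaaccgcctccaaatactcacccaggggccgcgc

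The 2 myeloid lectins both had large positive ratios. Clec4a2 encodes DCIR, an inhibitory receptor of dendritic cells and other myeloid cells that bears an ITIM. Its log ratio was 4.31 on array 1, 4.28 on array 2 and 3.84 on array 3, so that array 3 lay well below the others. The mean was 4.14 ± 0.26 (SD, n = 3), or 17.6-fold in base 2 and 62.9-fold in natural logs, with a limma adjusted p of 1.43e-07 and a rank of 23 from the top.

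Clec4b1 encodes DCAR, the activating counterpart that pairs with the Fc receptor gamma chain. Its log ratios were 3.63, 3.46 and 3.54 on arrays 1 to 3, a narrow range in which array 2 was lowest. The mean of 3.55 ± 0.085 (SD, n = 3) ranked 38 from the top, at 11.7-fold in base 2 or 34.7-fold in natural logs, with a limma adjusted p of 5.06e-08. Clec4a2 exceeded Clec4b1 by 0.67, 0.82 and 0.29 on arrays 1 to 3. Fcer1g, the gene of that gamma chain, had log ratios of 1.21, 1.19 and 1.13, with a mean of 1.18 ± 0.042 (SD, n = 3) and a limma adjusted p of 3.97e-06.

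Both lectin genes lie on chromosome 6 and follow each other directly in the RefSeq gene order. Clec4a1, Clec4a3, Clec4a4, Clec4b2, Clec4n, Clec4d and Clec4e lie close by and are not analysed here. Because these relatives share sequence and the probe sequences were not used here, a probe of one gene may also bind RNA of another, and single members are uncertain. The Clec4b1 promoter is shown as the member with the most matches to the ETS core, 1 on each strand. Its window is chr6:123049712-123049961 on the plus strand, with 29.2% G and C.
Clec4b1: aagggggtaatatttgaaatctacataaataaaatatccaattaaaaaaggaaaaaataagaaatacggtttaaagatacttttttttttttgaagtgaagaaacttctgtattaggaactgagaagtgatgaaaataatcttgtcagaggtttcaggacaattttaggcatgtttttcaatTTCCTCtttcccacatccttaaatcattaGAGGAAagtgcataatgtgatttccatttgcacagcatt
Clec4a2 held 2 overlapping matches to the C/EBP form and none to the ETS core. Over the 8 windows, 1 held the GATA core, 2 the ETS core and 3 the C/EBP form.

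**Figure D2:**
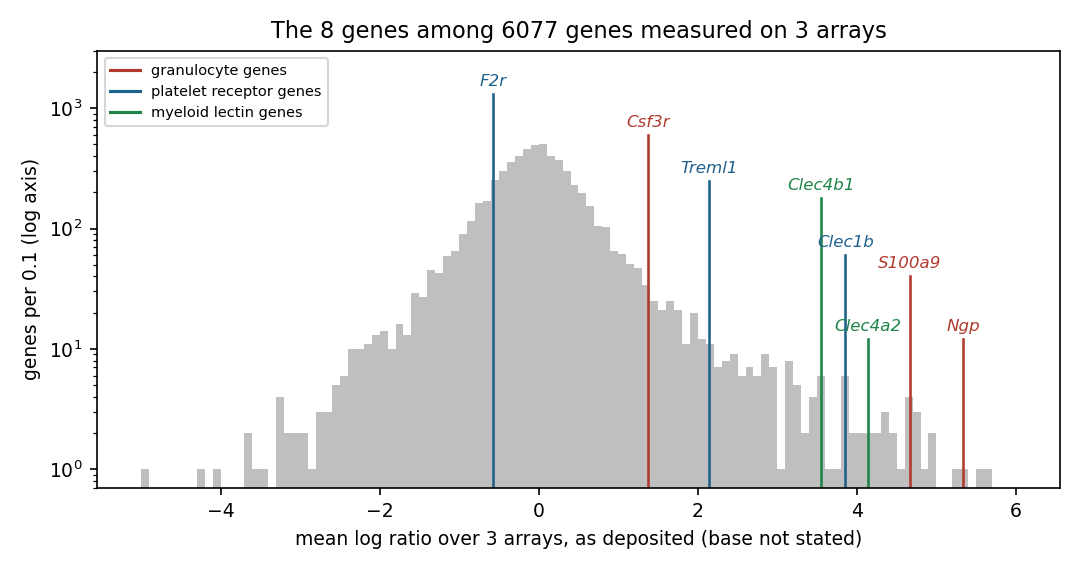
Number of genes (vertical axis, log scale) by mean log ratio over the 3 arrays (horizontal axis, base not stated) for the 6077 genes measured on every array, with the 8 genes marked by lines whose heights carry no value. Ngp, S100a9, Clec4a2, Clec1b and Clec4b1 lie in the sparse upper end, Treml1 and Csf3r on the upper shoulder, and F2r in the body of the distribution below 0.

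In descending order the genes were Ngp, S100a9, Clec4a2, Clec1b, Clec4b1, Treml1, Csf3r and F2r. This order was set from the means of the same 3 arrays, and all 28 pairs kept it on each array. Neither order nor overlap of ranges was counted over pairs of all genes, so such counts cannot be called particular to these genes. Only the ranges of Clec4a2 and Clec1b overlapped, the difference between them being 0.32, 0.51 and 0.03 on arrays 1 to 3. That difference averaged 0.29 ± 0.24 (SD, n = 3), so those neighbours were separated by little more than their spread. Clec1b and Clec4b1, the next pair down, differed by 0.31 ± 0.043 (SD, n = 3). With 3 arrays a two-sided exact test of such a difference cannot go below 0.25, so no p is given. These are differences between ratios, and say nothing of which gene had more RNA in either sample.

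Among the 8 genes the arrays did not contribute alike. Array 3 held the lowest value of 6 of the 8 genes and the highest of none, while arrays 1 and 2 each held the highest value of 4. The same counts were not taken over all genes, so they cannot be called particular to these 8. The deviation of array 3 from the mean of the 3 arrays was -0.31 for Ngp, -0.30 for Clec4a2, -0.23 for S100a9 and -0.20 for Csf3r. It was only -0.0039 for Clec4b1. The deviations of the measured probes within 20 probe numbers were set beside them. On array 3 the median deviation of the neighbours was -0.28 beside Clec4a2 (7 neighbours), -0.27 beside Csf3r (29 neighbours) and -0.13 beside Ngp (26 neighbours), but -0.018 beside S100a9 (29 neighbours). Clec1b and Treml1 deviated by -0.049 and -0.051 there, and their neighbours went the other way, by 0.019 and 0.077. Over the 24 pairs of gene and array, the gene and its neighbours deviated to the same side in 14. No count over all probes was set beside this. The deviations of a gene cancel over the 3 arrays, so the 24 pairs are not independent. For Treml1 the gene and its neighbours were on opposite sides on each array. The part of the neighbours' deviations in the spread of these genes was not tested. Leaving out any array kept all 8 calls.

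**Figure D3:**
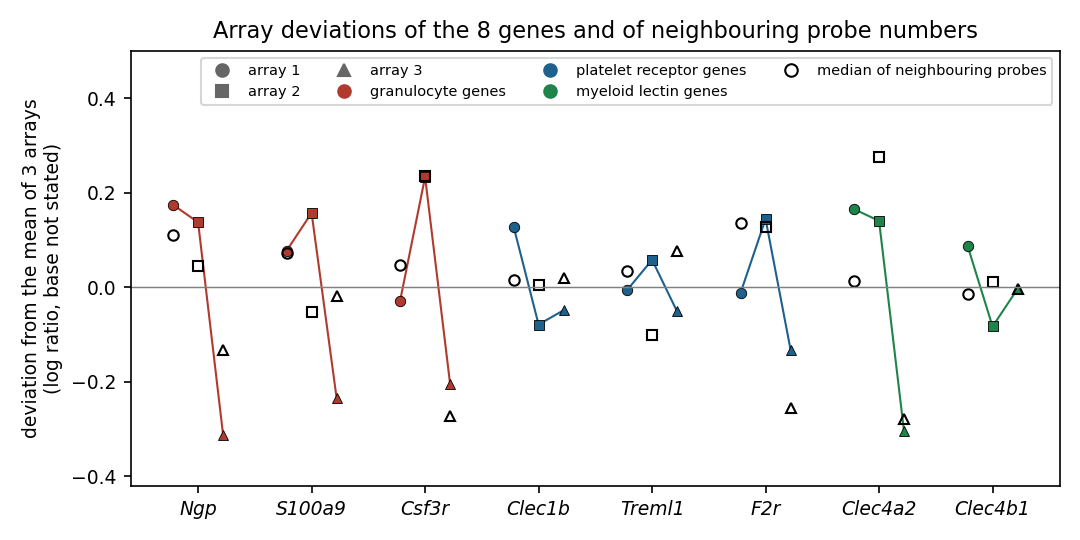
Deviation of each array from the mean of the 3 arrays (vertical axis, log ratio) for the 8 genes (filled symbols, joined by lines) and the median deviation of the measured probes within 20 probe numbers (open symbols), with arrays 1 to 3 as circle, square and triangle. Array 3 lies lowest for 6 genes, and the neighbours on that array lie between -0.28 and -0.13 for Ngp, Csf3r, F2r and Clec4a2.

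The other neutrophil genes measured on all 3 arrays gave smaller ratios. Of 49 genes on the list 12 are named on the table, and 7 of these were measured on all 3 arrays, 6 positive and 1 negative, with a median of 1.02. The 4 that are not among the 8 genes had a median of 0.63. Beside this and each later list stand the shares over all genes, 33.2% called positive and 37.1% negative. Cyba, a subunit of the phagocyte oxidase, had a mean of 1.02 ± 0.19 (SD, n = 3), with 0.81, 1.17 and 1.08 on arrays 1 to 3. Stfa3, a stefin of granulocytes, had 0.80 ± 0.025 (SD, n = 3). Alox5ap, which serves leukotriene synthesis, had 0.46 ± 0.040 (SD, n = 3) over 3 probes whose own means were 0.27, 0.64 and 0.46. Anxa1, an anti-inflammatory annexin also made by epithelial and stromal cells, was negative at -0.83 ± 0.11 (SD, n = 3). The granule enzyme Mpo, the gelatinase Mmp9 and the integrin gene Itgb2l were listed at 0 on every array. An exact 0 was read as no measurement and cannot be taken for absence.

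The platelet list showed the same mixture. Of its 48 genes 14 are named on the table and 7 were measured on every array, 5 positive, 1 negative (F2r) and 1 not past the test, with a median of 1.35. Gng11, a G protein gamma subunit, had 1.96 ± 0.10 (SD, n = 3) over 2 probes. P2ry12, the platelet receptor for ADP, had 1.35 ± 0.066 (SD, n = 3), with 1.27, 1.37 and 1.40 on arrays 1 to 3. The ATP-gated channel P2rx1 had 0.67 ± 0.072 (SD, n = 3) over 2 probes whose own means were 0.30 and 1.04. The laminin-binding integrin Itga6 had -0.16 ± 0.080 (SD, n = 3; limma adjusted p = 0.0575). It passed as negative at -0.20 with a running median over 20 probes on either side removed (limma adjusted p = 0.0273). With the running median over 5 probes removed instead, its sign changed, at 0.022 (limma adjusted p = 0.624). Tubb1, the tubulin of the platelet's marginal band, was listed at 0 on every array.

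Among C-type lectins the 3 of the 8 genes stood above the rest that were measured. Of 76 genes 15 are named on the table, and 7 were measured on all 3 arrays, 6 of them positive and 1 not past the test, with a median of 0.68. The others were Klra2 at 0.68 ± 0.072 (SD, n = 3), Clec2h at 0.64 ± 0.045 (SD, n = 3), Cd302 at 0.45 ± 0.089 (SD, n = 3) and the phospholipase receptor Pla2r1 at -0.16 ± 0.20 (SD, n = 3; limma adjusted p = 0.143). Those 4 had a median of 0.54, while Clec4a2, Clec1b and Clec4b1 had means of 4.14, 3.85 and 3.55. The Clec2h value came from 2 probes whose own means were 0.89 and 0.38. In this list 6 genes, among them Cd69, Cd209b and Clec10a, were listed at 0 on every array.

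The relatives of S100a9 and Ngp went in both directions. Of 9 measured genes in the list of S100 proteins, cathelicidins and cystatins 6 were positive and 3 negative, with a median of 0.33. S100a16 had -1.20 ± 0.13 (SD, n = 3), S100a14 -0.96 ± 0.43 (SD, n = 3) and S100a11 -0.93 ± 0.10 (SD, n = 3), the opposite sign to S100a9. The cystatin Cst3 had 0.37 ± 0.053 (SD, n = 3), S100b had 0.33 ± 0.22 (SD, n = 3) and the leukocyte cystatin Cst7 had 0.23 ± 0.14 (SD, n = 3). S100a1 had 0.43 ± 0.29 (SD, n = 3), but its 2 measured probes disagreed, with means of 1.97 and -1.10. Without array 1, S100a1, S100b and Cst7 did not pass (limma adjusted p = 0.0653, 0.0845 and 0.172), nor did Cst7 without array 3 (0.131). The partner of S100a9 in calprotectin, S100a8, is not analysed here.

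By gene mean, Csf3r was exceeded by 1 other measured haematopoietic cytokine receptor. Of 10 measured receptors 6 were called positive and the other 4 did not pass, and the median was 0.57. Over all genes 70.3% were called in either direction. The interleukin 10 receptor chain Il10ra had the highest mean, 2.01 ± 0.24 (SD, n = 3), followed by Csf3r at 1.37. The erythropoietin receptor Epor had 0.95 ± 0.16 (SD, n = 3) over 2 probes whose own means were 1.56 and 0.35, the first above Csf3r. Lifr had 0.76, Ifnar1 had 0.70 and Il2rb had 0.43. The 4 not past the test were Osmr at 0.16, Il6st at 0.06, Ifnar2 at -0.05 and Il3ra at -0.07. Without array 2, Ifnar2 passed with a negative ratio of -0.23 (limma adjusted p = 0.029). Osmr passed at 0.19 with each array centred on its median (adjusted p = 0.0456 by limma), and Il6st at 0.29 with a running median over 20 probes on either side removed (adjusted p = 0.00764 by limma). Csf1r and Kit were listed at 0 on every array.

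Downstream of these receptors, the named adaptor and kinase genes that were measured were positive and the G protein genes mixed. Positive ratios passed for 9 of 15 measured ligands and signalling partners and negative ones for 4, leaving 2 not past the test, and the median was 0.41. Over all genes 33.2% were called positive and 37.1% negative. Syk, the kinase recruited by CLEC-2 and by the Fc receptor gamma chain, had log ratios of 3.20, 3.08 and 3.08 and a mean of 3.12 ± 0.068 (SD, n = 3). The adaptor Lcp2, which acts below Syk, had 2.02 ± 0.095 (SD, n = 3). Stat5b, a transcription factor activated by G-CSF among other cytokines, had 0.70 ± 0.24 (SD, n = 3) over 2 probes, with means of 1.15 and 0.26. The receptor kinase Grk5 had 0.89 ± 0.017 (SD, n = 3). Another adaptor gene, Grb2, had 0.41 ± 0.13 (SD, n = 3) over 2 probes whose own means were 0.047 and 0.77. In this list 4 genes, among them the kinase genes Btk and Fyn, were listed at 0 on every array. Called negative were the phosphatase gene Ptpn11 and the ligand gene Csf1. Ptpn11 had -0.48 ± 0.17 (SD, n = 3) over 3 probes whose own means were -0.84, -0.24 and -0.35. Csf1 had -0.32 ± 0.081 (SD, n = 3). Of the G protein alpha subunits that can couple to PAR1, Gna12 had 0.70 ± 0.21 (SD, n = 3), Gnai2 had 0.57 ± 0.14 (SD, n = 3) over 3 probes, Gnaq had -0.14 ± 0.063 (SD, n = 3; limma adjusted p = 0.0832), Gna11 had -0.68 ± 0.093 (SD, n = 3) and Gna13 had -1.10 ± 0.36 (SD, n = 3). Syk and Lcp2 also serve lymphocytes, and 6 of 6 measured B cell genes and 5 of 6 measured T cell genes were positive. The part of lymphocytes in the ratios of Syk and Lcp2 was not tested.

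**Figure D4:**
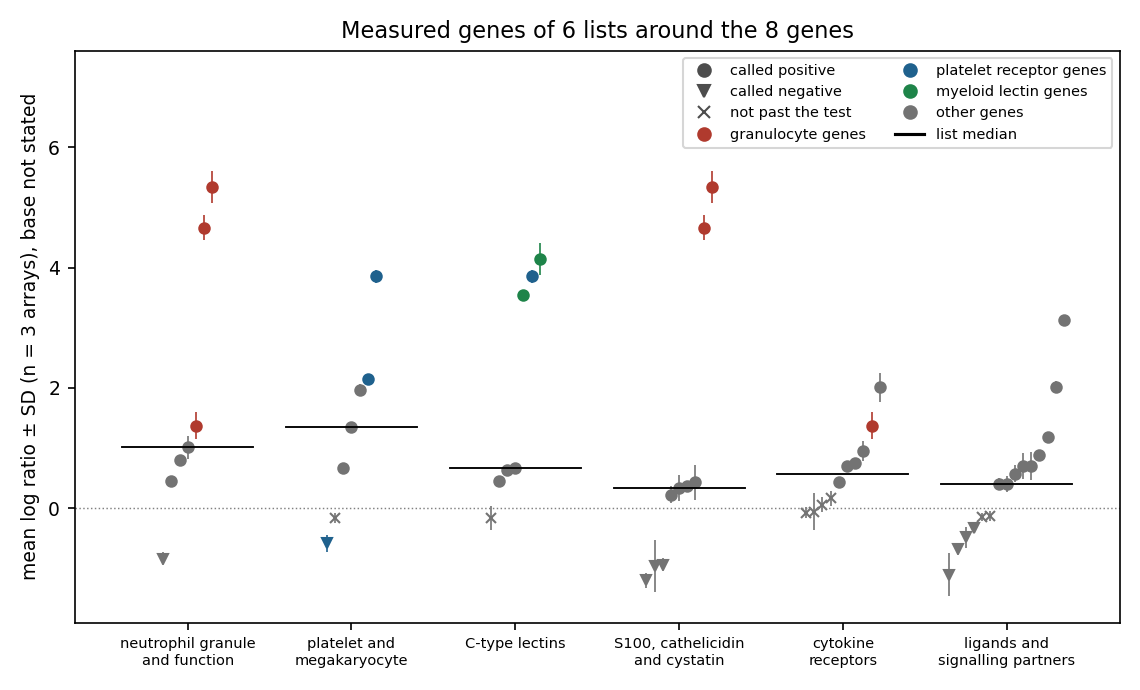
Mean log ratio with SD over 3 arrays (vertical axis, base not stated) of each measured gene in 6 lists; circles are positive calls, triangles negative calls and crosses genes not past the test, colours mark the 8 genes and black lines the list medians. The list medians lie between 0.33 and 1.35, and Ngp and S100a9 stand at 5.34 and 4.66.

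The genes whose 3 array values came closest to those of each of the 8 genes were found by root mean square difference. Clone and predicted gene names were left out of this search, so a gene so named may lie closer. Those found came from several tissues and cell types. For Ngp they were Reg2 (0.17), a secreted pancreatic protein, and Cd83 (0.28), a dendritic cell marker. For S100a9 they were Rnase1 (0.058) and Satb1 (0.12), and for Clec4a2 the iron exporter Slc40a1 (0.10) and Gimap3 (0.16). For Clec1b they were Cpb1 and Itga9 (0.067 each), and for Clec4b1 the B cell gene Ms4a1 (0.065) and Slc6a4 (0.11). Treml1 was matched by Rabgap1l (0.039) and Pla2g1b (0.067), Csf3r by Pot1b (0.046) and Git2 (0.076), and F2r by Rtn3 (0.028) and Prxl2c (0.030). The measure covers 3 arrays of the same comparison, so it compares the size of the ratio and no pattern across conditions.

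Markers of some other cell types were mostly positive too, whereas all 5 measured fibroblast and matrix genes were negative. The test called 14 of 15 measured exocrine pancreas genes positive, and their median was 4.04, with means from -0.14 to 5.22, in the range of the largest ratios described here. Among 4 measured macrophage genes 3 were called positive, with means from 0.13 to 4.24, and 5 of 6 T cell genes were positive, with means from -0.85 to 4.69. The part of pancreatic RNA, blood or macrophages in the ratios of the 8 genes was not tested. No mast cell or basophil gene and no eosinophil gene on the lists was measured on all 3 arrays.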

How the data were processed

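Spleen cRNA (Cy5) and universal reference cRNA (Cy3) were compared on 3 arrays forming 1 group, per the labels. The authors deposited 1 signed log ratio per probe and array, 16273 probes in all. The array type, the normalization and the log base are not stated. Exactly 0 stood for 3940, 4356 and 4051 probes on arrays 1 to 3 and was read as no measurement, leaving 11086 probes measured on each array. Between pairs of arrays their Pearson's r across probes was 0.952 to 0.969. Precision is limited by the number of arrays, and intensities were not used here.

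The platform annotation gives 12336 probes 1 symbol, 61 several and leaves 3876 unnamed here. Of its gene IDs 12228 matched RefSeq (GRCm38.p6, used for names, gene order and promoters). Averaging the measured probes that share a symbol gave 6077 genes. The test of each ratio against 0 was that of limma 3.58.1 (R 4.3.3; moderated, two-sided, Benjamini-Hochberg over all genes), a method tested on simulated data. The 8 genes, the gene lists and the tests were chosen with earlier results of these data known. Named are the 8 genes and every measured gene of a list with at most 10 of them, or the 8 of largest absolute mean. Also named are the 2 genes closest to each of the 8, with clone and predicted gene names left out. From longer lists a gene named besides was chosen after its values were seen. Alternatives covered normalization, moderation, thresholds, 0 values, probe averaging, a trend along probe numbers and leaving out each array. Figures used matplotlib 3.10.9 in Python 3.11.15.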

Additional observations from a re-analysis of the deposited data

How the results depend on the processing

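All 8 genes kept sign and call under the 16 alternatives, except F2r in limma's tests against a 1.5-fold change (adjusted p = 1 in base 2 and 0.0841 in natural logs), so that 7 of 8 passed there. The ratio of Clec4b1 was lowest, at 2.85 in place of 3.55, with a running median over 5 probes on either side removed. Without moderation 2770 genes and 4609 probes passed, against 4270 and 7576, with 8 of the signalling partners and 5 of the S100, cathelicidin and cystatin list. Against a 1.5-fold change in base 2, 1208 genes and 2104 probes passed, with 3 C-type lectins, 5 signalling partners, 4 of the S100 list and 3 cytokine receptors, and in natural logs 1771 genes and 3120 probes, with 8 signalling partners and 5 of the S100 list. With 0 kept as a value 5 of 11 genes of the S100 list passed. Leaving out an array gave 3660 to 4151 genes, 6287 to 7395 probes, 6 to 9 of the S100 list and 6 to 7 receptor genes. It left 8 of the 8 genes, 7 neutrophil, 6 platelet, 6 lectin and 13 signalling genes each time. The S100 list had 6 without array 1, where S100a1, S100b and Cst7 did not pass (adjusted p = 0.0653, 0.0845 and 0.172). Of 704 values of 44 named genes under the alternatives, 656 kept their side of the threshold, 44 lost the call, 4 gained one and 0 turned the sign of a call. The causes were not tested. No paired analysis was possible because the 3 arrays form 1 group.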

Other observations

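Several genes of these cell types had a value on some arrays and 0 on the others, and so were not among the genes tested on all 3 arrays. They entered only the alternatives that accepted 2 arrays or kept 0 as a value. Ppbp, the platelet basic protein, had a log ratio of 5.48 on array 3 and was listed at 0 on arrays 1 and 2. The scavenger receptor Cd36 had 2.38 on array 3 alone. Fcnb, a ficolin of neutrophil precursors, had 2.25 on array 2 and 2.00 on array 3, and Unc13d, which serves granule release, had 1.95 and 1.83 on the same arrays. The protease inhibitor Cstb was negative on both arrays that measured it, with -1.42 on array 1 and -1.51 on array 3. Cd9, a tetraspanin of platelets and many other cells, had -0.53 on array 3 from 1 of its 2 probes.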
